A study of Mus musculus with 2 samples.

Results

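Kit and the receptors for the blood growth factors were examined as 9 of the 31053 genes counted in leukemia cells: Kit, Flt3, Csf1r, Csf2ra, Csf2rb, Csf2rb2, Il3ra, Epor and Csf3r. They were chosen by symbol, not by their levels, though with earlier results of these data known. The aim was to describe which growth signals the cells could receive in each library and cell state.

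The cells came from fetal liver with floxed Usp18 and with UBCER-Cre, in which the ubiquitin C promoter drives, in all tissues, a recombinase that needs tamoxifen. They were transduced with a retrovirus encoding GFP and AML1-ETO9a (AE9a), a truncated AML1-ETO fusion that causes myeloid leukemia in mice, and were passed to irradiated C57BL/6 recipients. Once sick, the recipients were injected with oil or with tamoxifen, and GFP+ Lin- c-Kit+ spleen cells were sorted when 3 days had passed since the first of the injections. Each pool held 3 mice, so each group is 1 library and no spread between animals can be given. The genotype, title and treatment labels give Usp18f/f and Usp18delta/delta, whereas the treatment protocol gives Usp18+/f and a heterozygous loss, so the libraries are named by the injection in their labels.

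Usp18, the targeted gene, had 371 UMIs (5.62 CPM) with the label oil and 933 UMIs (15.4 CPM) with the label tamoxifen. The level was thus higher under the label of a deletion. Since 3′ reads cannot show that an upstream exon is lost, these counts do not tell whether Usp18 was deleted. Isg15, an interferon-induced gene, had 47.8 and 114 CPM. After filtering, 6838 and 6472 cells were kept, with 66045700 and 60661486 UMIs and a median of 8622.5 and 8209.5 UMIs per cell. Each library shared 14 cell barcodes with the other. The list of mast cell markers was present in full (11 of 11 genes) and made up 0.299% and 0.276% of UMIs, and all 13 erythroid markers in the matrix were detected, at 0.858% and 0.994%. By contrast 8 of 10 granulocyte markers, 4 of 5 B cell markers, 5 of 6 T and NK cell markers and all 4 dendritic cell markers had at most 10 UMIs in both libraries together. For other lists fewer markers were so low: 3 of 8 for monocytes and macrophages, 2 of 6 for megakaryocytes and 4 of 8 for stem and progenitor cells. Summed, those lists held 8.09 and 8.89 CPM, 7.46 and 10.3 CPM, and 7.89 and 9.68 CPM.

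Growth factor receptors decide which signals keep blood progenitors alive and dividing. Kit is a receptor tyrosine kinase that binds stem cell factor, on which mast cells and early erythroid cells depend. The receptors for IL-3 and GM-CSF pair a ligand-binding alpha chain (Il3ra, Csf2ra) with the common beta chain Csf2rb. Mice have an additional beta chain, Csf2rb2, which serves IL-3 alone. Epor, the erythropoietin receptor, acts as a homodimer, and like the beta chains it signals through JAK2 and STAT5.

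Csf2rb and Csf2rb2 are near-identical neighbours, which bears on whether their reads can be told apart. On GRCm38, in the GENCODE M21 annotation, Csf2rb (ENSMUSG00000071713) is at 78325752 to 78353847 on chromosome 15, plus strand. Csf2rb2 (ENSMUSG00000071714) is at 78282507 to 78305721, minus strand, with 20030 bases between them. Their coding sequences are 95.2% identical over 2631 aligned bases, and after the stop codon 1421 of 1579 aligned bases are identical, with 85.8% in the last 500 bases. The ends of their coding sequences (GENCODE M21) are shown because they tell the paralogs apart. Capitals mark the 7 differing bases and the 54 bases by which Csf2rb runs on beyond the stop codon of Csf2rb2.
Csf2rb: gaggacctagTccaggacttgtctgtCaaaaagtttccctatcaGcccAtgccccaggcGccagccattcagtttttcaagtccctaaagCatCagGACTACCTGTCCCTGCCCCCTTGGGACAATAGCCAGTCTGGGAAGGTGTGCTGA
Csf2rb2: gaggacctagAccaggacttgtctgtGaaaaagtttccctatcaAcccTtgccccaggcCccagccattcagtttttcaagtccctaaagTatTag
No 90-base window in the last 500 bases of the full-length transcripts was shared with another gene (0 of 411 windows each). Of 2 shorter Csf2rb isoforms, however, 58 of 308 and 12 of 411 windows were shared with Csf2rb2. Reads from the 3′ ends that this kit captures can thus be assigned to 1 paralog for the full-length forms and only in part for the short ones.

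RefSeq promoter windows (GRCm38.p6, 250 bases before to 50 after the start) were matched by symbol for 7 of the 9 genes, and Csf2rb and Csf1r had no entry. Each window was searched on both strands for TGTGGT, the core letters bound by AML1, for AGATAA, a site of GATA1 and its relatives, and for TTCNNNGAA, the palindrome bound by STAT proteins. Epor held TGTGGT at -166 and AGATAA at -54, and Csf2rb2 held TTCNNNGAA at -15, counted from the start to the leftmost base of the match. The windows of Kit, Flt3, Csf2ra, Il3ra and Csf3r held none of these letters. Of 32851 promoter windows, 16.8% held TGTGGT, 11.2% AGATAA and 8.30% TTCNNNGAA, so the match of each in 1 of 7 windows is close to that background. The 250 bases before the start of both genes with a match are shown, with the matches in capitals (in Epor both are on the opposite strand).
Epor, chr9:21963577-21963826, minus strand: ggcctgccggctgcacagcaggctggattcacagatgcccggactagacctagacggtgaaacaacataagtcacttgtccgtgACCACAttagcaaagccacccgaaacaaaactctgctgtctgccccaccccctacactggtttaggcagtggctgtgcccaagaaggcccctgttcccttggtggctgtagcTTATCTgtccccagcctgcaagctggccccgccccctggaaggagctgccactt
Csf2rb2, chr15:78305722-78305971, minus strand: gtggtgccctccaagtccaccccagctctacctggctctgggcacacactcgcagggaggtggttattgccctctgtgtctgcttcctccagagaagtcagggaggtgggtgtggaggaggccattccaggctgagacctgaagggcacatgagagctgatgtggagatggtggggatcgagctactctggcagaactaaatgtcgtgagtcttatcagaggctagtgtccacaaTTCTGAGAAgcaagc

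The first question was which receptor transcripts the cells held at all. The cells expressed Kit, both beta chains and Epor, low levels of the alpha chains, and next to no Flt3, Csf3r or Csf1r. Levels are given in CPM, its UMIs divided by the total of the library or state and scaled to a common total of 1000000. A 3′ UMI counts 1 end of a transcript whatever its length, so levels can be set side by side between genes, although capture may still differ between genes. Intervals are exact, at 95%, and cover counting error only.

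Among single-chain receptors, Kit (chromosome 5, 75574916 to 75656722) had 11305 UMIs, or 171 CPM, under the oil label and 14057 UMIs, or 232 CPM, under the tamoxifen label. The sort was on c-Kit protein, so its level is that of cells gated for it. Flt3, the receptor of an early progenitor factor, had 0 UMIs in both libraries, which allows up to 0.0454 and 0.0495 CPM. Csf1r, the receptor of macrophage colony-stimulating factor, had 13 UMIs in each, or 0.197 CPM (0.105 to 0.337) and 0.214 CPM (0.114 to 0.366). Of the receptor tyrosine kinases among the 9 genes, the cells thus held Kit and almost nothing of the others.

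Csf2rb was the most abundant of the 9 genes, with 508 CPM (502 to 513) and 530 CPM (524 to 536). Csf2rb2 followed with 247 CPM (243 to 251) and 253 CPM (249 to 257). The alpha chains were far lower. Csf2ra (chromosome 19, 61223957 to 61228429) had 15.3 CPM (14.3 to 16.2) and 14.6 CPM (13.6 to 15.6), and Il3ra (chromosome 14, 14346275 to 14356011) had 2.71 CPM (2.33 to 3.14) and 2.74 CPM (2.34 to 3.19).

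Beta chain transcripts therefore outnumbered alpha chain transcripts many times over. UMIs of Csf2rb were 33.3-fold (31.2 to 35.5) those of Csf2ra under oil and 36.3-fold (34.0 to 38.9) under tamoxifen. Over Il3ra the excess was 187-fold (162 to 218) and 194-fold (166 to 227). The beta chains themselves stood at a ratio of 2.06 (2.02 to 2.10) and 2.09 (2.05 to 2.13), Csf2rb over Csf2rb2. For each of these 3 ratios the intervals of both libraries overlapped.

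Epor (chromosome 9, 21958897 to 21963506) had 41.3 CPM (39.7 to 42.9) and 36.5 CPM (35.0 to 38.1), between the beta and the alpha chains. Csf3r, the G-CSF receptor of the granulocyte lineage, had 1 UMI and 0 UMIs. The order in each library was thus Csf2rb, Csf2rb2, Kit, Epor, Csf2ra, Il3ra and Csf1r, and the intervals of neighbours in that order overlapped in neither library down to Csf1r.

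**Figure D1:**
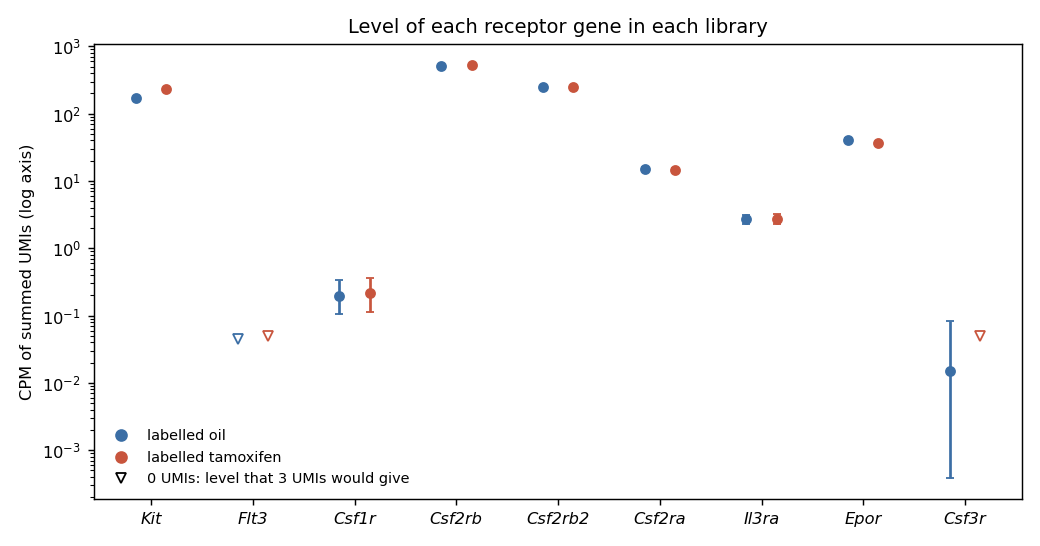
Level of the 9 receptor genes in CPM of summed UMIs (log axis) in the library labelled oil (blue) and labelled tamoxifen (red), with exact 95% Poisson intervals; open triangles mark 0 UMIs and sit at the level 3 UMIs would give. Csf2rb, Csf2rb2 and Kit lie between 171 and 530 CPM, whereas Csf1r, Csf3r and Flt3 lie below 0.3 CPM in both libraries.

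Next, the libraries were compared gene by gene. With 1 library per group no test was possible, so a gene was called when it was at least 1.5-fold higher or lower. Only 6 of the 9 genes passed the minimum of 100 UMIs in both libraries together, while Flt3, Csf1r and Csf3r did not. None of the 6 was called over all kept cells, against 2.09% of all 10527 measured genes called higher and 1.27% called lower in the library labelled tamoxifen. With a stricter cell filter (673 and 771 cells) Kit would be called, at a log2 ratio of 0.69 (0.59 to 0.80). The counting interval of the ratio lay above 0 for Kit, Csf2rb and Csf2rb2, as for 19.3% of measured genes, and below 0 for Epor, as for 39.8%. At this depth a counting interval that leaves out 0 is common and says nothing about mice.

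Kit had a log2 ratio of 0.44 (0.40 to 0.47), tamoxifen over oil, beside a median of -0.06 over all measured genes. For the beta chains the ratio was close to 0, at 0.06 (0.04 to 0.08) for Csf2rb and 0.04 (0.0044 to 0.07) for Csf2rb2. Epor was lower in the library labelled tamoxifen by a log2 ratio of -0.18 (-0.26 to -0.09). Neither alpha chain could be told from equal at this depth, with -0.07 (-0.20 to 0.07) for Csf2ra and 0.01 (-0.30 to 0.33) for Il3ra.

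To see which signals single cells could receive, each cell was thinned to 3000 UMIs, leaving out 508 and 345 shallower cells. A Kit UMI was then found in 37.4% (36.2 to 38.6) and 43.6% (42.3 to 44.8) of cells, and a Csf2rb UMI in 61.1% (59.9 to 62.3) and 61.4% (60.2 to 62.7). Csf2rb2 was seen in 37.1% and 35.9% and Epor in 11.0% and 9.97%. Without thinning these shares were 65.6% and 68.9% for Kit, 85.4% and 85.1% for Csf2rb, 56.2% and 55.7% for Csf2rb2, and 29.5% and 26.2% for Epor. The sort gave a single population without a cell type known to lack these genes, so the share that free RNA gives was not tested.

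Few cells showed every chain of an IL-3 or GM-CSF receptor. A complete GM-CSF receptor, Csf2ra with Csf2rb, was seen in 2.75% (2.36 to 3.18) and 2.66% (2.27 to 3.09) of thinned cells, and the product of the shares of the single chains was 2.83% and 2.76%. Il3ra with either beta chain was seen in 0.648% (0.465 to 0.878) and 0.637% (0.453 to 0.869), against products of 0.620% and 0.580%. Of cells with a Csf2ra UMI, 59.4% and 59.3% also had a Csf2rb UMI, close to the 61.1% and 61.4% among all thinned cells. Without thinning the complete GM-CSF receptor was seen in 11.8% and 10.7% of cells and that of IL-3 in 2.34% and 2.13%.

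Kit and the common beta chain were seen together in 24.9% (23.8 to 25.9) and 28.6% (27.4 to 29.7) of thinned cells, a little above the products of their shares, 22.9% and 26.8%. Kit without Csf2rb was seen in 12.5% and 15.0%, Csf2rb without Kit in 36.3% and 32.9%, and neither in 26.3% and 23.5%. Counting the receptors for stem cell factor, IL-3, GM-CSF and erythropoietin, 53.9% and 49.2% of thinned cells showed no complete receptor. A single complete receptor was seen in 40.5% and 44.9%, and 2 in 5.36% and 5.78%. These are shares of detection at 3000 UMIs, not of cells that make the receptor, and without thinning cells with no complete receptor were 21.7% and 20.7%.

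The cells were then divided into states by clustering, with receptor genes kept out of the genes used. The 9 resulting clusters were numbered by size from 0. Cluster 0, led by S100a6, Klf2 and Mcpt1, held 1827 and 1280 cells, and 95.7% and 97.3% of its cells with a phase, the 1545 and 1106 that reached 3000 UMIs, were called G1. Shares of a phase below are likewise of cells that reached 3000 UMIs. Cluster 4, led by Cpa3 and Cx3cr1, was also in G1 (97.0% and 98.4%). Cluster 1 was led by the replication genes Ung and Hells, with 70.1% of its oil cells called S, and cluster 2 by histone genes and Top2a, with 70.9% called G2M. Cluster 3 was led by Ifit1, Tac2 and Hba-a2, cluster 5 by Gm15892 and Ccnb2, and cluster 6 by the mitotic genes Nusap1 and Cenpf. Cluster 5 differed in phase between the libraries, with 11.6% of its oil and 42.2% of its tamoxifen cells called G1, and 78.8% and 45.4% called G2M. Cluster 7 was almost all from the library labelled tamoxifen (472 of 510 cells), and cluster 8 was small and shallow, with a median of 1188 UMIs.

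Kit was highest in cluster 4, with 617 CPM (590 to 645) and 841 CPM (816 to 867). In cluster 0 it was 390 and 473 CPM. Clusters 1 and 2 held much less, between 88.8 and 107 CPM in the 4 values. Because cells of clusters 1 and 2 held more UMIs each, the contrast was smaller per cell, at 3.42 and 5.03 UMIs per cell in cluster 4 against 1.48 and 1.84 in cluster 2. In cluster 7 of the library labelled tamoxifen Kit had 357 CPM (334 to 381). Kit was thus highest in cluster 4 on both scales.

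Csf2rb and Csf2rb2 were highest not in cluster 4 but in cluster 0. There Csf2rb had 1659 CPM (1633 to 1686) and 1751 CPM (1720 to 1783), and Csf2rb2 1008 and 1038 CPM. In cluster 4 Csf2rb had 387 and 446 CPM and Csf2rb2 177 and 164 CPM, and both were lowest in cluster 2, with 193 and 195 CPM for Csf2rb and 47.0 and 49.0 CPM for Csf2rb2. Per cell, cluster 0 had 8.38 (8.25 to 8.51) and 9.15 (8.99 to 9.32) Csf2rb UMIs, and the mitotic cluster 6 had 8.69 (8.32 to 9.08) under the oil label and 5.27 (5.01 to 5.55) under the tamoxifen label, so the lead of cluster 0 held per cell in the library labelled tamoxifen only. In CPM, the cluster with the most Kit differed from that with the most Csf2rb at this resolution, whereas at the coarser resolution of 0.3 a single cluster was highest in Kit (433 CPM over both libraries), Csf2rb (1699 CPM) and Csf2rb2 (1021 CPM). Csf2rb2 varied more than Csf2rb, since the ratio of Csf2rb to Csf2rb2 was 1.65 and 1.69 in cluster 0 and 4.11 and 3.97 in cluster 2.

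In CPM over both libraries, both alpha chains had their highest level where Kit had it, in cluster 4. Il3ra had 10.9 and 9.87 CPM from 35 and 51 UMIs there, 5.96 and 4.48 CPM in cluster 0 and at most 2.41 CPM in clusters 1, 2, 3, 5 and 6. Csf2ra varied less, with 22.8 CPM (17.9 to 28.7) and 22.1 CPM (18.2 to 26.5) against 13.8 and 13.7 CPM in cluster 1. Csf2ra in cluster 5 had 21.7 CPM (16.4 to 28.1) in the library labelled oil and 11.1 CPM (8.61 to 14.0) in the other, and so did not keep its rank in both. Per cell, Il3ra was still highest in cluster 4 (0.0607 and 0.0590 UMIs), whereas Csf2ra was highest in cluster 2, with 0.222 and 0.269 UMIs against 0.127 and 0.132 in cluster 4. Csf1r had at most 4 UMIs in any cluster of a library, and the single Csf3r UMI was in cluster 5.

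Epor showed another order. It was highest in cluster 2, with 49.2 CPM (46.4 to 52.2) and 45.7 CPM (42.2 to 49.5), and low in cluster 4, with 20.3 CPM (15.7 to 25.9) and 28.8 CPM (24.4 to 33.9). Per cell the difference was larger, with 0.819 and 0.802 UMIs in cluster 2 against 0.113 and 0.172 in cluster 4. Over clusters 0 to 6 in the 2 libraries the CPM of Epor spanned a narrower range (20.3 to 49.2) than that of Kit (81.2 to 841) or Csf2rb2 (47.0 to 1038).

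**Figure D2:**
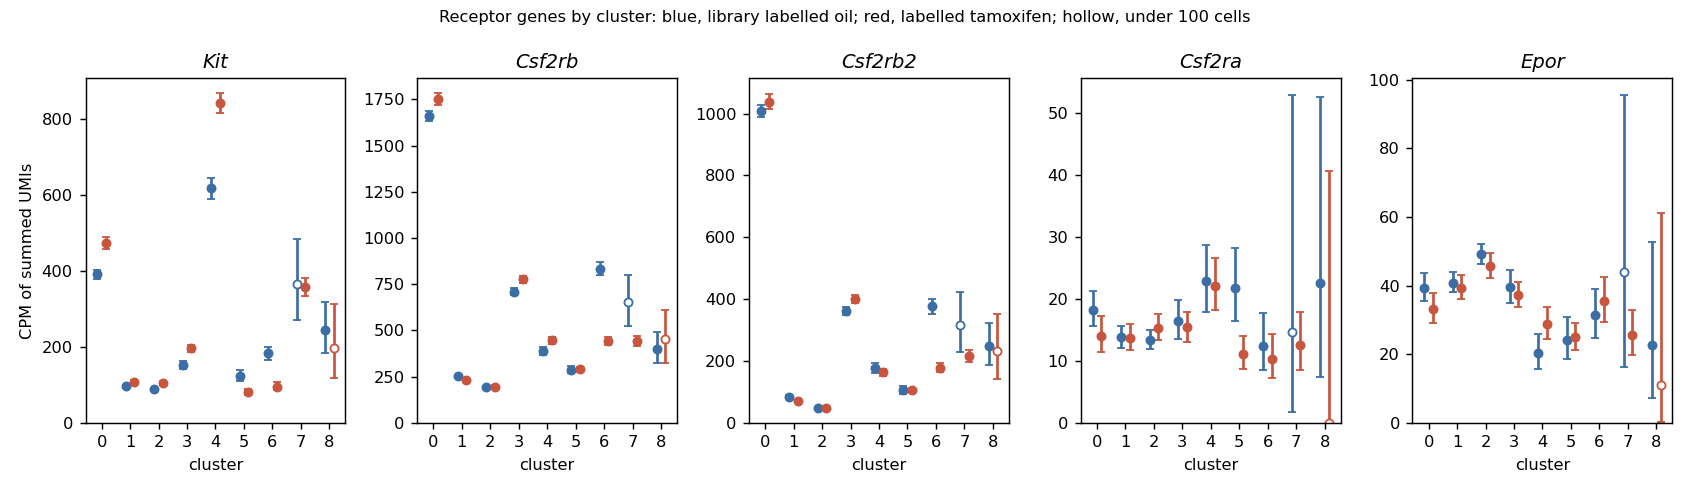
CPM of Kit, Csf2rb, Csf2rb2, Csf2ra and Epor in each of 9 clusters, in the library labelled oil (blue) and labelled tamoxifen (red), with exact 95% Poisson intervals; each panel has its own axis from 0, and hollow points have under 100 cells. Kit peaks in cluster 4 (617 and 841 CPM), both beta chains peak in cluster 0 (Csf2rb 1659 and 1751 CPM), and Epor peaks in cluster 2 (49.2 and 45.7 CPM). The hollow Epor point of cluster 7 in the library labelled oil (43.9 CPM, 16.1 to 95.6) has an interval that reaches above that peak.

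At the finer resolution of 1.0, most cells of cluster 0 fell into 3 groups in which Kit and the beta chains separated further. The first, 40.5% of the cluster and led by Hba-a2, Alas2 and Slc4a1, held 3.47% and 4.54% of its UMIs in the erythroid list. It had the highest Csf2rb of all these groups, 2742 CPM (2681 to 2803) and 2663 CPM (2601 to 2726), with Csf2rb2 at 1804 and 1678 CPM and Kit at 294 and 341 CPM. Another, 29.5% of the cluster and led by Smarca1, Chst1 and Cpa3, held 1.27% and 1.04% of its UMIs in the mast cell list and 0.283% and 0.369% in the erythroid list. Here Kit was 818 CPM (782 to 855) and 950 CPM (905 to 998), whereas Csf2rb was 938 and 962 CPM. Among clusters of this resolution with at least 100 cells in both libraries, Kit was highest in this group (884 CPM over both libraries) and not in the one that held most of cluster 4. The remaining group, 28.7% and led by Ccnb2, had 213 and 287 CPM of Kit and 1282 and 1264 CPM of Csf2rb. Leading genes of the 3 groups are those over the rest of cluster 0. In the Ccnb2-led group 91.7% and 93.2% of cells with a phase were called G1. Median depth was 4029 and 4231.5 UMIs in the hemoglobin-led group and 4020 and 4332 in the Cpa3-led group. In the Ccnb2-led group it was 6692.5 and 6756.5 UMIs, and the part of depth in these receptor differences was not tested.

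Cells were also ranked, within each library, by the share of UMIs from lists of mast cell or erythroid genes. The lists hold none of the receptor genes chosen here. From the lowest to the highest quintile of the mast cell list Kit went from 62.2 to 591 CPM in the library labelled oil and from 58.3 to 787 CPM in the other, and it was higher at each step. Csf2rb went from 285 to 1144 and from 348 to 956 CPM. Il3ra went from 0.889 to 9.17 and from 1.09 to 8.15 CPM, and Csf2ra from 11.9 to 21.5 and from 10.4 to 18.6 CPM. Epor went the other way, from 52.5 to 32.2 and from 46.5 to 26.7 CPM. Depth and phase moved with the list, with a median of 13215 and 11450 UMIs and 11.9% and 29.2% of cells called G1 in the lowest quintile, against 4540.5 and 4980 UMIs and 90.4% and 94.0% in the highest, and their part was not tested. On the scale of UMIs per cell the log2 ratio of the highest over the lowest quintile was 1.86 and 2.62 for Kit and -2.10 and -1.93 for Epor. Csf2ra turned its direction with the scale, with 0.85 and 0.84 in CPM and -0.54 and -0.30 per cell. A quintile is a range of a score and not a cell type.

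Along the erythroid list Kit and the beta chains parted. Kit was highest in the lowest quintile, with 446 and 679 CPM, against 116 and 150 CPM in the highest. Over the 3 lowest quintiles Csf2rb was lower in CPM at each step, with 379, 332 and 302 CPM in the library labelled oil and 361, 348 and 326 CPM in the other, and it was 1165 and 1231 CPM in the highest. Per cell it was higher at each of these steps, from 2.44 to 3.67 and from 2.16 to 3.74 UMIs. Csf2rb2 in the highest quintile had 695 and 705 CPM. The alpha chains went the way of Kit, with 23.9 and 18.1 CPM of Csf2ra in the lowest quintile and 11.2 and 11.5 CPM in the highest, and 6.83 and 6.98 CPM of Il3ra against 1.37 and 1.32 CPM. Epor was higher with the erythroid list, from 26.4 to 51.0 CPM and from 24.8 to 44.3 CPM. G1 cells were common at both ends, 74.1% and 89.1% in the lowest quintile and 54.7% and 63.1% in the highest, and the part of the phase in these trends was not tested.

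**Figure D3:**
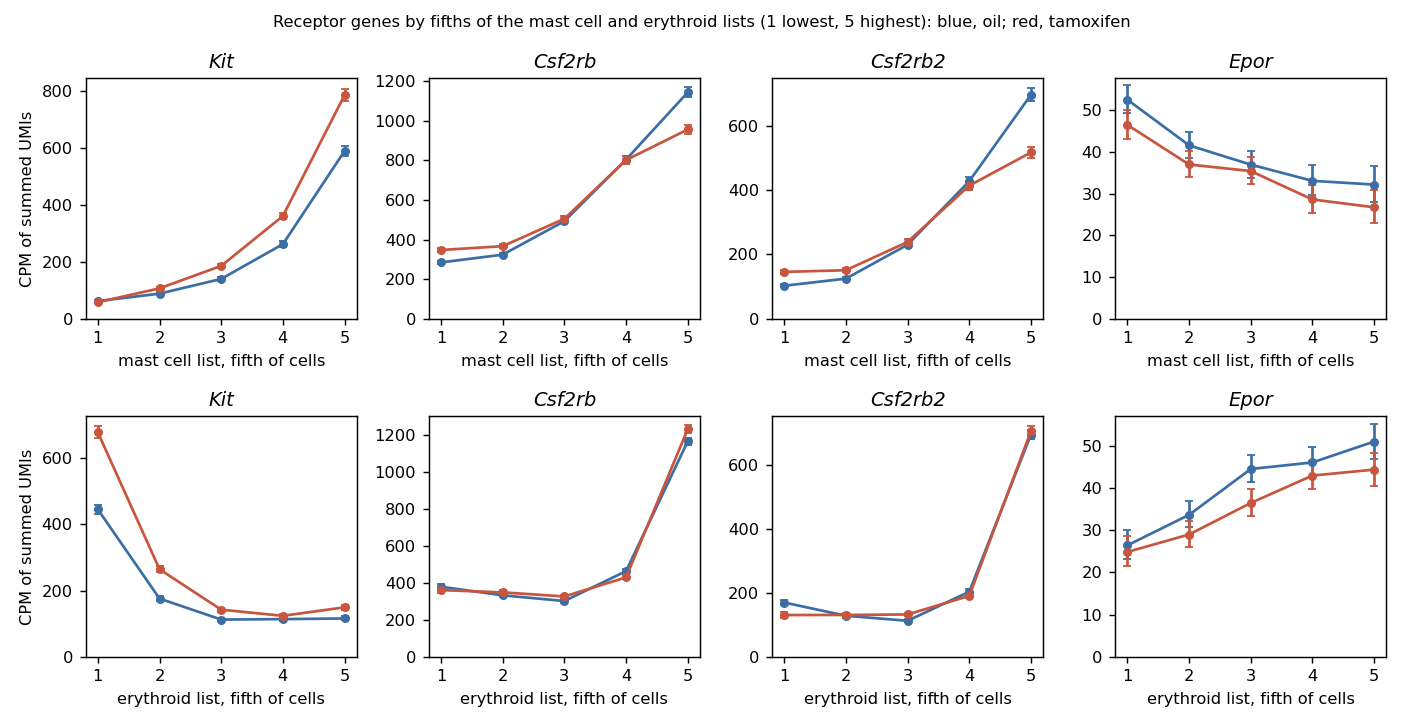
CPM of Kit, Csf2rb, Csf2rb2 and Epor in quintiles of cells ranked by the share of UMIs from the mast cell list (upper row) or the erythroid list (lower row), 1 lowest and 5 highest, in the library labelled oil (blue) and labelled tamoxifen (red), with exact 95% Poisson intervals. Kit is highest where the mast cell list is highest (591 and 787 CPM) and the erythroid list lowest (446 and 679 CPM), whereas Csf2rb is high at the top of both lists and Epor runs against the mast cell list.

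Cell cycle phase was considered next. In cells called G1 Kit had 324 and 372 CPM, against 99.2 and 118 CPM in S and 103 and 104 CPM in G2M. Csf2rb had 1054 and 850 CPM in G1 against 266 and 249 CPM in S, and Csf2rb2 601 and 453 CPM in G1 against 92.2 and 85.5 CPM in S. Epor was lower in G1, with 35.7 and 32.3 CPM, than in S, with 46.3 and 43.7 CPM. Il3ra had 4.96 and 3.87 CPM in G1 against 1.62 and 1.52 CPM in S. In CPM, Kit and both beta chains were thus highest in cells called G1 and Epor in cells called S, and the calls do not tell resting cells from G1 cells that divide.

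On the scale of UMIs per cell part of this contrast was lost for Kit and more was gained for Epor. Over S and G2M cells, the log2 ratio of G1 cells was 1.68 and 1.76 for Kit in CPM and 0.66 and 0.86 in UMIs per cell. For Csf2rb2 it was 2.75 and 2.48 in CPM and 1.73 and 1.58 per cell. For Epor it was -0.29 and -0.32 in CPM and -1.31 and -1.22 per cell. The alpha chain Csf2ra turned its direction with the scale, with 0.34 and 0.14 in CPM and -0.67 and -0.76 per cell.

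**Figure D4:**
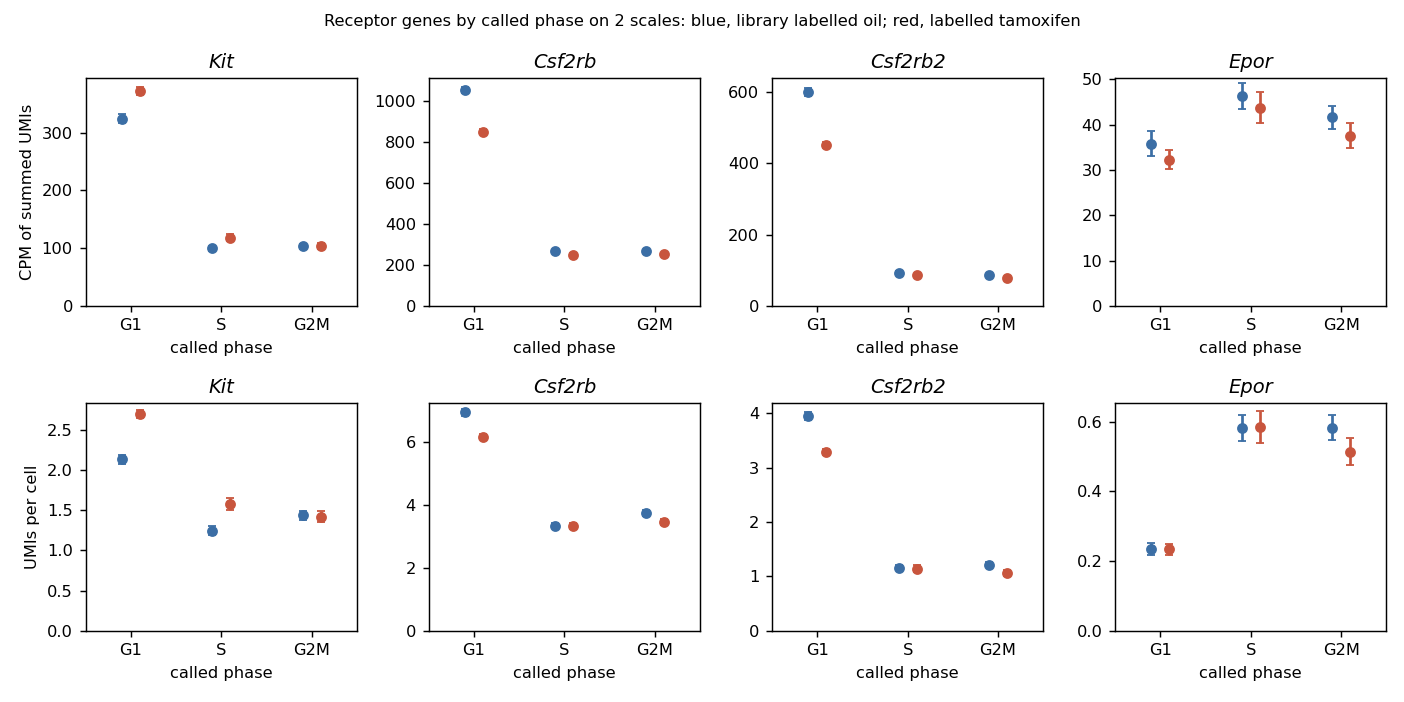
Kit, Csf2rb, Csf2rb2 and Epor by called cell cycle phase, in CPM (upper row) and in UMIs per cell (lower row), for the library labelled oil (blue) and labelled tamoxifen (red), with exact 95% Poisson intervals. Kit and both beta chains are highest in G1 on both scales, and Epor is lowest in G1, with 0.235 and 0.234 UMIs per cell.

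The libraries were compared again within states, since they held different mixes of cells. Kit was higher under the tamoxifen label in clusters 0 to 4, with log2 ratios from 0.16 (0.05 to 0.26) in cluster 1 to 0.45 (0.37 to 0.53) in cluster 4. In cluster 5 it was -0.60 (-0.81 to -0.40) and in cluster 6 -0.94 (-1.15 to -0.73). The phases of cluster 5 differed between the libraries (11.6% and 42.2% called G1), and their part in its ratios was not tested. With the clusters of both libraries weighted to a common mix the log2 ratio of Kit was 0.22 (0.18 to 0.26), and with phases so weighted it was 0.17 (0.14 to 0.21), in place of 0.44 over all cells. Within phases the ratio of Kit was 0.20 (0.15 to 0.25) in G1, 0.25 (0.16 to 0.34) in S and 0.01 (-0.07 to 0.10) in G2M. The direction of Kit was thus kept at a smaller size at either common mix. It was reversed in clusters 5 and 6, and in G2M Kit could not be told from equal.

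The near-equal levels of the beta chains over all cells stood beside differences within phases. Within G1 cells Csf2rb was lower in the library labelled tamoxifen by a log2 ratio of -0.31 (-0.34 to -0.28) and Csf2rb2 by -0.41 (-0.45 to -0.37). At a common mix of phases the ratios were -0.24 (-0.26 to -0.22) and -0.35 (-0.38 to -0.32). At a common mix of clusters they were -0.01 (-0.03 to 0.01) and -0.04 (-0.07 to -0.0014). Cluster 0, where the beta chains were highest in CPM, held 26.7% of the oil and 19.8% of the tamoxifen cells, while 2852 of 6330 and 3673 of 6127 thinned cells were called G1.

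Epor was lower in the library labelled tamoxifen over all cells, with ratios of -0.13 (-0.21 to -0.04) at a common mix of phases and -0.08 (-0.16 to 0.01) at a common mix of clusters. Within clusters its interval lay above 0 in cluster 4 (0.51, 0.08 to 0.95), below 0 in cluster 0 (-0.25, -0.49 to -0.0011), and included 0 in clusters 1, 2, 3, 5 and 6. For both alpha chains the interval included 0 at either mix. Csf2ra was nonetheless lower under the tamoxifen label in cluster 5 (-0.97, -1.50 to -0.44), cluster 0 (-0.37, -0.75 to -0.0016) and G1 (-0.23, -0.44 to -0.01), while the interval of Il3ra included 0 in clusters 0 to 6 and in each phase.

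**Figure D5:**
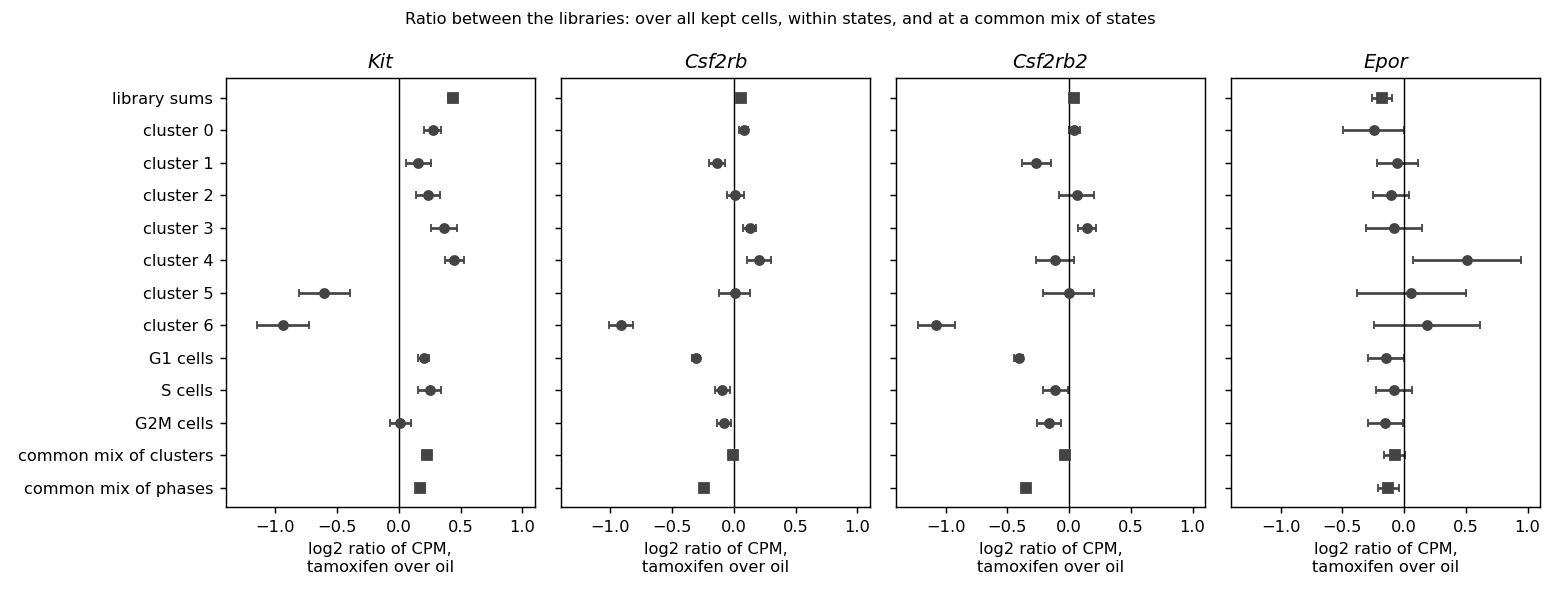
Log2 ratio of CPM, library labelled tamoxifen over library labelled oil, for Kit, Csf2rb, Csf2rb2 and Epor over all kept cells, within clusters 0 to 6 and called phases (circles), and at a common mix of clusters or phases (squares), with 95% intervals of counting error. Kit lies above 0 in clusters 0 to 4 and below 0 in clusters 5 and 6, and both beta chains lie furthest below 0 in cluster 6 (-0.92 and -1.07).

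The genes whose pattern was most like that of a receptor were taken from 5664 genes of at least 20 CPM in both libraries, by Pearson's r over 16 pairs of a cluster and a library. These points share libraries and depth, so r is a description only. Csf2rb was most like Csf2rb2 (r = 0.98), then Furin (0.96) and Adcy7 (0.95). Kit was most like Ivns1abp (0.97), Sipa1l1 (0.97) and Lpin1 (0.96), and its r was 0.56 with Csf2rb and -0.44 with Epor. Epor was most like Gypc (0.82), which encodes a red cell membrane glycoprotein, then 1700037H04Rik and Eif4ebp1 (0.79 each). Csf2ra was most like Eya4 (0.90), Hspb11 (0.90) and Fam105a (0.89), and its r with Csf2rb was 0.06. The third gene for Csf2rb2, after Csf2rb and Furin (0.95), was C77080 (0.93).

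The rest of the pathway was read from lists of ligands, other receptors, signaling proteins, negative regulators and STAT5 targets. Of 10 ligands, 2 passed the minimum of 100 UMIs, and Kitl, Csf2, Il3 and Epo had 0 UMIs in both libraries. Flt3l had 1357 and 1271 UMIs (log2 ratio 0.03, -0.08 to 0.14), while those of its receptor numbered 0. Csf1 had 1.98 and 1.39 CPM (-0.52, -0.93 to -0.11). The ligands of Kit and of the IL-3, GM-CSF and erythropoietin receptors were thus not detectable in the leukemia cells at this depth, which allows up to 0.0454 and 0.0495 CPM each.

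Of 41 other cytokine and growth factor receptors, 19 passed the minimum and none was called in either direction, with a median log2 ratio of 0.09. Beside this list and those below, 2.09% of all measured genes were called higher and 1.27% lower, with a median of -0.06. Il1rl1, the IL-33 receptor of mast cells, was the most abundant, at 539 and 642 CPM (0.25, 0.23 to 0.27), above Csf2rb. Its partner chain Il1rap had 4.88 and 3.82 CPM and the lowest ratio of the list (-0.35, -0.60 to -0.10). Il10ra (0.31, 0.18 to 0.44) and Igf1r (0.28, 0.22 to 0.33), the receptor of insulin-like growth factor 1, stood at the top, and Il9r (-0.22, -0.41 to -0.03) and Ifngr1 (-0.08, -0.22 to 0.06) near the bottom. Il5ra, which also pairs with Csf2rb, had 18 and 24 UMIs.

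Of 30 signaling genes, 29 passed the minimum, 1 was called higher and none lower, with a median of 0.04. Jak2, the kinase of the beta chains and of Epor, had 45.3 and 56.1 CPM (0.31, 0.24 to 0.38), and the ratio of Plcg1 was 0.40 (0.13 to 0.66). Map2k1 (-0.40, -0.50 to -0.30) and Shc1 (-0.25, -0.36 to -0.15), parts of the MAP kinase branch, were among the lowest ratios. Stat5a was lower (-0.18, -0.24 to -0.13) and Stat5b higher (0.15, 0.09 to 0.21) in the library labelled tamoxifen.

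Of 23 negative regulators, 20 passed the minimum and none was called, with a median of -0.02. Spry2 (0.38, -0.00052 to 0.77), Cblb (0.26, 0.15 to 0.38) and Ptprj (0.26, 0.16 to 0.35) had the highest ratios. Pias3 (-0.19, -0.30 to -0.08), Dok2 (-0.19, -0.29 to -0.08) and Ptpn6 (-0.17, -0.23 to -0.12), the phosphatase that switches off Kit and Epor, had the lowest. Of 17 STAT5 targets, 14 passed, with a median of 0.02 and 1 called higher. That gene was Socs1, an inhibitor of JAK kinases that interferon also induces, with 39.2 and 64.0 CPM (0.71, 0.64 to 0.78). Cdkn1a (0.56, 0.51 to 0.61) and Pim2 (0.23, -0.19 to 0.64) followed, and Pim3 (-0.42, -0.60 to -0.23), Id1 (-0.30, -0.36 to -0.25) and Osm (-0.15, -0.28 to -0.01) had the lowest ratios. Cish, a feedback target of STAT5, had 68.8 and 69.0 CPM (0.01, -0.06 to 0.07). The level of Isg15 moved with Socs1, and its part in it was not tested.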

How the data were processed

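Single-cell 3′ UMI counts were analysed in 2 libraries, 1 per injection group. Per the labels and methods, the authors made the deposited counts with the Chromium V3 kit, mm10 and Cell Ranger 3.0.2; the annotation release is not given in the sources used here. The counts carry no normalization. A UMI is 1 captured transcript after removal of PCR copies.

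The members and gene lists were chosen with earlier results of these data known. Cells were kept if they had 500 or more genes and no more than 10% mitochondrial UMIs. Counts were summed per library or state, as CPM with exact Poisson intervals. Ratios have exact conditional binomial intervals, and shares exact Clopper-Pearson intervals, all at 95%. The limit of a count of 0 is 3 counts. Intervals at a common mix use a normal approximation of the counting error. With 1 library per group there was no test. The ratio step was checked on simulated data for tamoxifen over oil (10527 genes, 200 changed), and 95.4% of intervals covered the true value. The simulated counts held counting error only, so this checks the calculation and not the spread between mice or cells.

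Scrublet called 0.0731% and 0% of cells doublets. Whether these few calls missed doublets was not tested, and no cells were removed. Clusters came from Seurat (2000 variable features, 20 principal components, resolution 0.5), with both libraries merged; the variable features left out the receptors, interferon and MHC class I lists, Usp18 and genes at least 1.5-fold apart. Phases were called on cells thinned to 3000 UMIs.

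All 9 members are named in the comparison over all cells, with Usp18 and Isg15; by state, the 6 members of at least 100 UMIs are given, Csf1r and Csf3r by their UMIs in clusters alone, and within the Cpa3- and hemoglobin-led groups Kit and the beta chains alone. Of each list the 3 highest and 3 lowest ratios among genes of at least 100 UMIs are named, and any gene at least 1.5-fold apart; the other list genes were named after their values were seen. Some genes that this rule names are not reported here. The alternatives were other cell filters, removal of the 6% of cells that scored highest in Scrublet, scaling by TMM (edgeR 4.0.16), by median ratio (DESeq2 1.42.0) or by totals that leave out ribosomal protein and mitochondrial genes, equal weight per cell, other count minimums, thinning depths and cluster settings. Clusters were made in R 4.3.3 with Seurat 5.3.0 and Matrix 1.6.5. Sums and intervals used Python 3.11.15 with scipy 1.17.1, numpy 2.4.6 and pandas 2.3.3, doublet scores scanpy 1.11.5, and plots matplotlib 3.10.9.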

Additional observations from a re-analysis of the deposited data

Results flagged for a closer look

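The ratio between the libraries, tamoxifen over oil, had opposite signs in different clusters for 4 receptors, with counting intervals that left out 0 on both sides. These differences between clusters were not tested, since each cluster holds 1 library per group. The log2 ratio of Kit was 0.45 in cluster 4 and -0.94 in cluster 6, that of Csf2rb 0.20 in cluster 4 and -0.92 in cluster 6, and that of Csf2rb2 0.15 in cluster 3 and -1.07 in cluster 6. Epor had 0.51 in cluster 4 and -0.25 in cluster 0. Cluster 6 held 239 and 283 cells, and of the 233 and 283 that reached 3000 UMIs 84.1% and 88.0% were called G2M.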

How the results depend on the processing

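No paired analysis was possible because there was 1 library per injection and hence no test. The weighting to a common mix of phases or clusters was chosen after seeing the data. Of 60 member ratios between the libraries 36 moved by less than counting error, 18 moved further and 6 reversed, all 6 for Csf2rb and Csf2rb2; the causes were not tested. Log2 ratios between the libraries are given without further words below. The strict filter (1000 or more genes, no more than 5% mitochondrial UMIs; 673 and 771 cells) gave 0.69 for Kit, past the 1.5-fold limit, -0.38 for Csf2ra, 0.31 for Csf2rb, 0.38 for Csf2rb2 and -1.01 for Il3ra, with medians of 0.29 for other receptors and 0.094 for negative regulators, and 295 genes called lower. TMM, the median ratio and the total without mitochondrial and ribosomal genes gave 0.50, 0.50 and 0.51 for Kit, 0.13, 0.12 and 0.13 for Csf2rb, 0.10, 0.10 and 0.11 for Csf2rb2, and medians of 0.089, 0.087 and 0.094 for STAT5 targets. TMM and that total gave 88 and 88 genes called lower. Equal weight per cell gave 0.39 for Kit, -0.032 for Csf2rb and -0.11 for Csf2rb2, with 231 genes called lower. A common mix of phases gave 0.17 for Kit, -0.24 for Csf2rb and -0.35 for Csf2rb2, and one of clusters 0.22, -0.0092, -0.035 and, for Epor, -0.075.

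A minimum of 20 UMIs gave 572 genes called higher and 370 lower, in place of 220 and 134, and a minimum of 500 UMIs gave 105 and 73. Differences in the share of cells with a UMI, tamoxifen minus oil in percentage points, were 3.29 for Kit, -0.964 for Csf2ra, -3.26 for Epor and -1.14 for the GM-CSF receptor without thinning. At 5000 UMIs they were -1.55 for Csf2ra, 2.07 for Csf2rb2, 0.295 for Il3ra and -1.11 for the GM-CSF receptor.

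The log2 ratio of the highest over the lowest cluster at resolution 0.3 was 2.22 for Kit, 0.39 for Csf2ra, 3.06 for Csf2rb, 4.22 for Csf2rb2 and 0.44 for Epor. There Kit, Csf2rb and Csf2rb2 were highest in 1 cluster, 0.971% of the cells of cluster 4 were in the cluster highest in Kit, and 99.0% were in the one highest in Csf2ra. Resolution 1.0 gave 3.50 for Kit, whose highest cluster then held 1.04% of the cells of cluster 4, with 3.95 for Csf2rb, 5.20 for Csf2rb2 and 1.25 for Epor. With 30 principal components it was 4.34 for Csf2rb2, and with receptors among the variable features 2.85 for Kit and 3.32 for Csf2rb. Phases called on all UMIs gave ratios of G1 over S and G2M cells of 2.03 and 1.81 for Csf2rb in the libraries labelled oil and tamoxifen, and of 2.56 for Csf2rb2 in the latter. Program shares after thinning gave, highest over lowest quintile, 3.06 and 3.40 for Kit and 1.95 and 1.40 for Csf2rb by the mast cell list, and -1.82 and -2.06 for Kit by the erythroid list. At this depth Flt3, Csf1r and Csf3r had too few UMIs for a ratio.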

Other observations

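The barcodes that the filter left out, 936 and 839 in number, held the receptors in a similar order. Their Csf2rb level was 714 CPM (688 to 740) in the library labelled oil and 640 CPM (616 to 664) in the library labelled tamoxifen, and Kit had 267 CPM (251 to 283) and 272 CPM (257 to 288). Flt3 and Csf3r had 0 UMIs there in both libraries.

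Ptprc, which encodes CD45, the pan-leukocyte phosphatase that also acts on JAK kinases, had 9 and 3 UMIs in the kept cells, or 0.136 and 0.0495 CPM. It was named after its values were seen.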
